A study of Mus musculus with 12 samples.

Results

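The 8 genes described here encode the enzymes and regulators of polyamine synthesis: Odc1, Amd1, Srm, Sms, Oaz1, Oaz2, Azin1 and Sat1. They were found by their symbols in a table of read counts for 13780 genes from mouse CD8+ T cells, and all 8 passed the filter on low counts. Putrescine, spermidine and spermine are small positively charged molecules that bind RNA and other negatively charged molecules, and dividing cells need them. Ornithine decarboxylase (Odc1) makes putrescine, spermidine synthase (Srm) and spermine synthase (Sms) lengthen it with aminopropyl groups prepared by S-adenosylmethionine decarboxylase (Amd1), antizymes (Oaz1, Oaz2) direct ornithine decarboxylase to the proteasome, and an antizyme inhibitor (Azin1) ties up antizyme. In T cells, stimulation through the antigen receptor is known to raise polyamine synthesis, and Odc1 is a textbook target of the transcription factor MYC.

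CD8+ T cells were taken from spleens of wild-type C57BL/6J mice, aged 8 to 12 weeks, by positive selection on magnetic beads. Naïve cells were frozen in lysis buffer as soon as they had been isolated (4 libraries, 4 donors). The rest were stimulated through CD3 and CD28 on beads, with IL-2 at 10 U/ml, and harvested after 72 h, either in plain media (4 libraries) or with 40 mM sodium lactate added (4 libraries), from 5 donors. Of these, 3 gave both conditions if the donor tags, which repeat among the libraries, are taken to start anew with the higher library numbers, and every value by donor rests on this reading. Sodium and osmolarity also differ between plain media and sodium lactate, so lactate and the added salt cannot be told apart here. The 12 libraries held between 14726904 and 21478137 counted reads. Comparing lactate with media asks what sodium lactate does to activated cells, while comparing either with naïve cells asks what goes with activation in that condition; the 3 comparisons share libraries and are not independent of each other.

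The label of the cells was checked on marker genes before the polyamine genes were read. Summed over 5 genes of CD8+ T cells, of which Cd8a was the most abundant, levels were 3087, 2635, 3582 and 1579 counts-per-million (CPM) in naïve libraries 1 to 4, 2784, 3462, 2738 and 3093 in media 1 to 4, and 2049, 2609, 2189 and 2312 in lactate 1 to 4. These markers were abundant in all 12 libraries. Naïve library 4 stood apart from the other naïve libraries. Its correlation with them across genes was 0.947 to 0.953, against 0.976 to 0.985 among the other 3, its Cd8a level was 388 CPM against 849 to 1208, and its Il7r level was 1272 CPM against 347 to 380. It is also the only naïve library among those numbered 16 to 26 by the submitters, together with media 4 and lactate 3 and 4, while the other 8 libraries are numbered 1 to 9. Where leaving it out changed the call or the sign for any of the 8 genes, both values are given. Other values against naïve cells, those of list genes among them, include it unless stated.

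The naïve libraries also held transcripts of other spleen cells. The sum of 3 B cell markers, led by Cd79b, was 480, 688, 277 and 536 CPM in naïve 1 to 4 against 5.91 to 11.8 in media and 4.41 to 6.76 in lactate. The sum of 5 myeloid markers, led by Csf1r, was 1506, 1126, 489 and 458 CPM in naïve 1 to 4 against 11.9 to 18.7 in media and 5.18 to 10.6 in lactate. In the same way, 2 red cell genes, led by Hba-a1, summed to 603, 2155, 243 and 55.8 CPM in naïve libraries and to at most 1.13 CPM in any activated library. The markers of CD4+ T cells (2 genes, led by Cd4) summed to 12.1 to 30.5 CPM in naïve and 0.437 to 1.7 CPM in activated libraries, and those of NK cells (2 genes, led by Klrb1c) to 3.13 to 8 CPM and at most 0.717 CPM, with Ncr1 at 0 in all 4 media libraries. All tested markers of these 5 cell types were lower in both activated groups than in naïve cells. The part of these other cells in the differences between naïve and activated libraries was not tested, and in bulk RNA fewer cells of a type and less RNA per cell cannot be told apart. The opposite held for 3 activation genes led by Gzmb, which summed to 72.3 to 321 CPM in naïve, 2918 to 3691 CPM in media and 5861 to 8047 CPM in lactate libraries. Among them Mki67 went the other way between the activated groups, at 1094 to 1469 CPM in media and 708 to 1011 CPM in lactate.

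Compared per length, as transcripts-per-million (TPM), the order of the 8 genes differed between the groups. In naïve cells Sat1 stood first (230.8 ± 38.8, SD, n = 4), with ranges overlapping those of Oaz1 (224 ± 13.5) and Odc1 (174 ± 107), and Srm (86.7 ± 5.37), Azin1 (65.3 ± 9.82), Sms (23.9 ± 3.33), Amd1 (23.6 ± 4.3) and Oaz2 (18.1 ± 3.52) followed. Sms and Amd1 could not be ordered beyond their spread, while Oaz2 was last in all 4 libraries, though its range overlapped theirs. In plain media Oaz1 led (213 ± 16.6), Odc1 (146 ± 40) and Sat1 (141 ± 10.7) overlapped, as did Azin1 (85.6 ± 4.56) and Srm (76.9 ± 31.8), Srm and Sms (40.05 ± 3.21), and Oaz2 (21.9 ± 1.78) and Amd1 (20.2 ± 2.8). In lactate Srm (319.5 ± 86.9) and Odc1 (296 ± 52.5) headed the order with overlapping ranges, followed by Oaz1 (241 ± 5.98), Sat1 (101 ± 16.9), Azin1 (76.3 ± 8.17), Sms (54.3 ± 3.46), Amd1 (46.1 ± 4.88) and Oaz2 (15.4 ± 1.77). Sat1 overlapped Azin1 there, and Sms overlapped Amd1. The place of Amd1 in each order is uncertain, since only uniquely mapped reads were counted and much of its sequence also occurs in transcripts of other genes. Among all 13780 genes ordered by TPM, Srm was at position 2430 in media and 434 in lactate, and Sat1 at 608 in naïve cells, 1259 in media and 1818 in lactate.

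**Figure D1:**
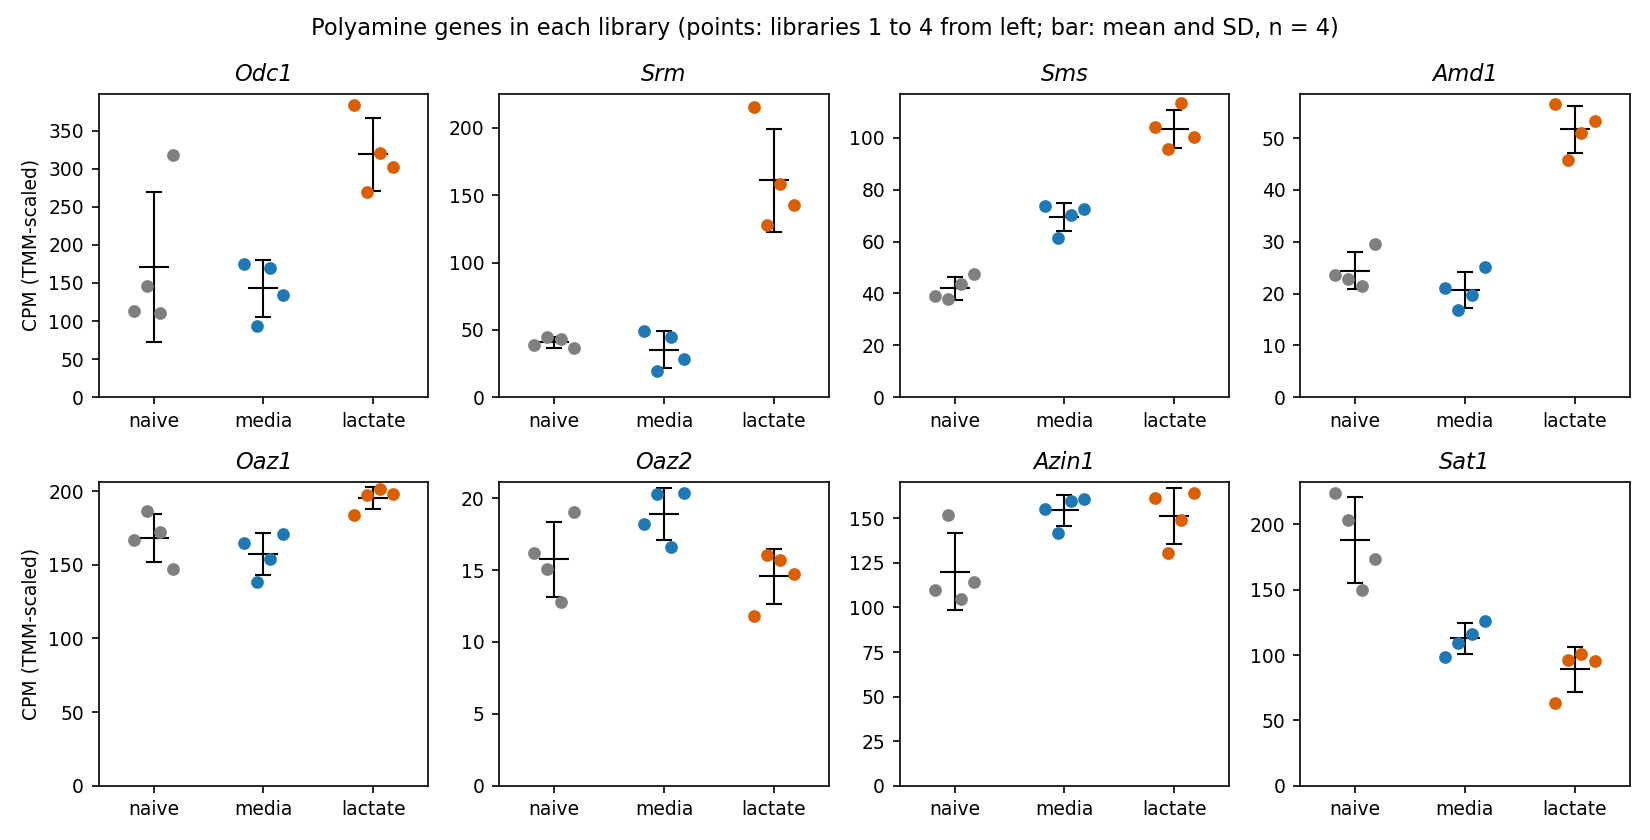
CPM (TMM-scaled, vertical axis from 0) of the 8 polyamine genes in each of the 12 libraries, 1 panel per gene, with points for libraries 1 to 4 of each group and bars for the mean and SD (n = 4). Srm lies at 128 to 216 CPM in lactate and at 19.4 to 49.0 CPM in the other 8 libraries, and naïve library 4 sits far above the other naïve libraries for Odc1.

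When lactate was compared with media, 3 of the 8 genes (Srm, Sms, Amd1) were called at an adjusted p of at most 0.01, against 25.1% of the 13767 genes tested. All 3 were higher in lactate (13.9% of genes were called higher) and 0 were called lower (11.1% of genes). The lactate and media libraries did not overlap for 6 of 8 genes, a pattern found in 44.7% of genes tested. The median log2 fold change of the 8 was 0.44, against -0.00158 over all genes tested. Without naïve library 4, which enters the estimate of spread, 5 of the 8 and 4830 of all genes were called, where the fit of all libraries called 3451 genes. Without media 2, 2260 genes and 3 of the 8 were called. With donor as a block, 992 genes and 2 of the 8 (Srm and Amd1) were called, and with that block fitted to the activated libraries alone, a fit added after seeing the data, 3769 genes and 4 of the 8. In both fits the lactate effect rests on the 3 donors that gave both conditions, since media 2 and lactate 3 are the only libraries of their donors. Among the markers, Cd3d, Cd3e and Cd3g (3 of 5 of the CD8+ T cell list), and Ccr7, a marker of naïve cells, were lower in lactate. Cd8a, Cd8b1 and Il7r were not called, nor were any of the 2 CD4+ T cell, 3 B cell, 5 myeloid, 2 NK cell, 2 red cell or 3 activation genes, and the part of these marker shifts in the results was not tested.

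Odc1 (ENSMUSG00000011179, chr12:17544794-17551505, plus strand, GRCm38) makes putrescine from ornithine and is the classic controlled step of the pathway. Its levels were 174, 93.75, 169 and 135 CPM in media 1 to 4 and 383, 269.8, 320.2 and 303 CPM in lactate 1 to 4. Every lactate library lay above every media library. The log2 fold change was 1.16 (SE 0.32, 2.23-fold), and edgeR's quasi-likelihood test with Benjamini-Hochberg adjustment gave an adjusted p of 0.0115, which misses the threshold of 0.01. The exact permutation test on the 4 against 4 libraries (two-sided, 70 arrangements) gave p = 0.0286, the smallest it can give. Without naïve 4 the adjusted p from the same edgeR test with Benjamini-Hochberg adjustment was 0.000376, and without naïve 3 it was 0.00919. Neither library belongs to the groups compared. Over all alternatives the adjusted p from Benjamini-Hochberg adjustment ran from 0.000376 (edgeR's quasi-likelihood test without naïve 4) to 0.12 (the same test with donor as a block). With the donor block fitted to the activated libraries alone Odc1 was called (log2 1.01, adjusted p = 0.000453, edgeR's quasi-likelihood test with Benjamini-Hochberg adjustment). In the 3 donors that gave both conditions (media 1 with lactate 1, media 3 with lactate 2, media 4 with lactate 4) the log2 difference was 1.14, 0.67 and 1.17.

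Amd1 (ENSMUSG00000075232, chr10:40287458-40302186, minus strand) makes decarboxylated S-adenosylmethionine, the donor of the aminopropyl groups. It stood at 21.1, 16.9, 19.7 and 25.1 CPM in media 1 to 4 and at 56.6, 45.9, 51.0 and 53.4 CPM in lactate 1 to 4. The lowest lactate library lay well above the highest media library. Amd1 rose 2.5-fold in lactate (log2 1.32, SE 0.14, adjusted p = 6.57e-05 by edgeR's quasi-likelihood test with Benjamini-Hochberg adjustment), and it was higher in 3 of 3 donors, by 1.42, 1.21 and 1.09 log2 units. Of the 71-base stretches of Amd1 transcripts, the length of the reads, 73.4% also occur in transcripts of other genes, mainly Amd2 and Amd pseudogenes. Only uniquely mapped reads were counted, so the level of Amd1 is uncertain.

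Srm (ENSMUSG00000006442, chr4:148591503-148594993, plus strand) turns putrescine into spermidine. It was at 49.0, 19.4, 44.9 and 28.0 CPM in media 1 to 4 and at 216, 128, 158 and 143 CPM in lactate 1 to 4. Media 2 and 4 were the low media libraries, and even the highest media library was below every lactate library. Srm rose 4.56-fold in lactate (log2 2.19, SE 0.26, adjusted p = 0.00011 by edgeR's quasi-likelihood test with Benjamini-Hochberg adjustment). Counted from the highest log2 fold change, it was number 128 of the 13767 genes tested, while Amd1 was number 489, Odc1 659 and Sms 2297. The donors' log2 differences for Srm were 2.14, 1.51 and 2.34.

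Sms (ENSMUSG00000071708, chrX:157443855-157492287, minus strand) makes spermine from spermidine. Its levels were 73.6, 61.4, 70.3 and 72.6 CPM in media 1 to 4 and 104, 95.85, 113 and 100.5 CPM in lactate 1 to 4. The groups were separate, with a smaller gap than for Srm. Sms rose 1.49-fold (log2 0.57, SE 0.0981, adjusted p = 0.000766 by edgeR's quasi-likelihood test with Benjamini-Hochberg adjustment). With donor as a block the call was lost (log2 0.47, adjusted p = 0.0237, same edgeR test and Benjamini-Hochberg adjustment; 3.74e-06 to 0.0237 over all alternatives), and with that block fitted to the activated libraries alone it was made (log2 0.49, adjusted p = 0.00292, same edgeR test and Benjamini-Hochberg adjustment). The donors' log2 differences were 0.50, 0.45 and 0.47. Of its 71-base stretches, 17% also occur in other transcripts, mainly those of Sms-ps, and for Odc1 the share is 17.6%, while for Srm it is 0%.

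Oaz1 (ENSMUSG00000035242, chr10:80826656-80829290, plus strand) and Oaz2 (ENSMUSG00000040652, chr9:65668001-65690300, plus strand) encode antizymes, which bind ornithine decarboxylase and also slow polyamine uptake. Oaz1 was at 165, 139, 154 and 171 CPM in media 1 to 4 and at 184, 197, 202 and 198 CPM in lactate 1 to 4. Oaz2 was at 18.2, 20.3, 16.6 and 20.4 CPM in media 1 to 4 and at 11.8, 16.0, 15.7 and 14.7 CPM in lactate 1 to 4. The groups did not overlap for either gene, with lactate above media for Oaz1 and below it for Oaz2. Neither passed edgeR's quasi-likelihood test with Benjamini-Hochberg adjustment: log2 fold changes were 0.31 (SE 0.0929, adjusted p = 0.0174) and -0.37 (SE 0.15, adjusted p = 0.0655). Oaz1 did pass without naïve 4 (adjusted p = 0.00567, same edgeR test and Benjamini-Hochberg adjustment; up to 0.157 over all alternatives). Donors differed by 0.16, 0.36 and 0.21 log2 units for Oaz1 and by -0.62, -0.05 and -0.46 for Oaz2. Of the 71-base stretches of Oaz1, 17.7% also occur in other transcripts, nearly all in Oaz1-ps.

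Antizyme is made only when the ribosome shifts frame at the stop codon of a short first reading frame, a step that polyamines promote and that counts of mRNA do not measure. The stretch around that stop codon is shown for both antizymes, since it carries this control. It lies at chr10:80828277-80828312 in an exon of Oaz1 (transcript Oaz1-205) and at chr9:65686254-65686289 in an exon of Oaz2 (Oaz2-203), both on the plus strand of GRCm38. Capitals mark the stop codon of the first frame. The stretches are identical at 33 of 36 bases.
Oaz1: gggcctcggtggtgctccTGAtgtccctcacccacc
Oaz2: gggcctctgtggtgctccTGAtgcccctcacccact

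Azin1 (ENSMUSG00000037458, chr15:38487427-38519266, minus strand) encodes a relative of ornithine decarboxylase without its activity that binds antizyme. It ranged from 142 to 161 CPM in media and from 130.3 to 164.5 CPM in lactate, so that the groups overlapped fully. Its log2 fold change was -0.03 (SE 0.12, adjusted p = 0.879 by edgeR's quasi-likelihood test with Benjamini-Hochberg adjustment), and without lactate 2 it was 0.04. The donors differed by 0.06, -0.30 and 0.03 on the log2 scale, 2 of 3 against the sign of the fit. An antisense gene, Gm49077, covers 5.72% of its exon bases. Whether the counting used strand is not given in the sources used here, so reads of the 2 genes may not have been told apart.

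Sat1 (ENSMUSG00000025283, chrX:155213132-155216449, minus strand) acetylates spermidine and spermine, which marks them for export or oxidation. It was at 98.9, 109, 116 and 126 CPM in media 1 to 4 and at 63.6, 96.5, 101 and 95.2 CPM in lactate 1 to 4. Lactate 1 was the lowest, and lactate 3 overlapped the lowest media library. The log2 fold change of -0.34 (SE 0.16) did not pass edgeR's quasi-likelihood test with Benjamini-Hochberg adjustment (adjusted p = 0.107), and the donors differed by -0.64, -0.27 and -0.41.

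**Figure D2:**
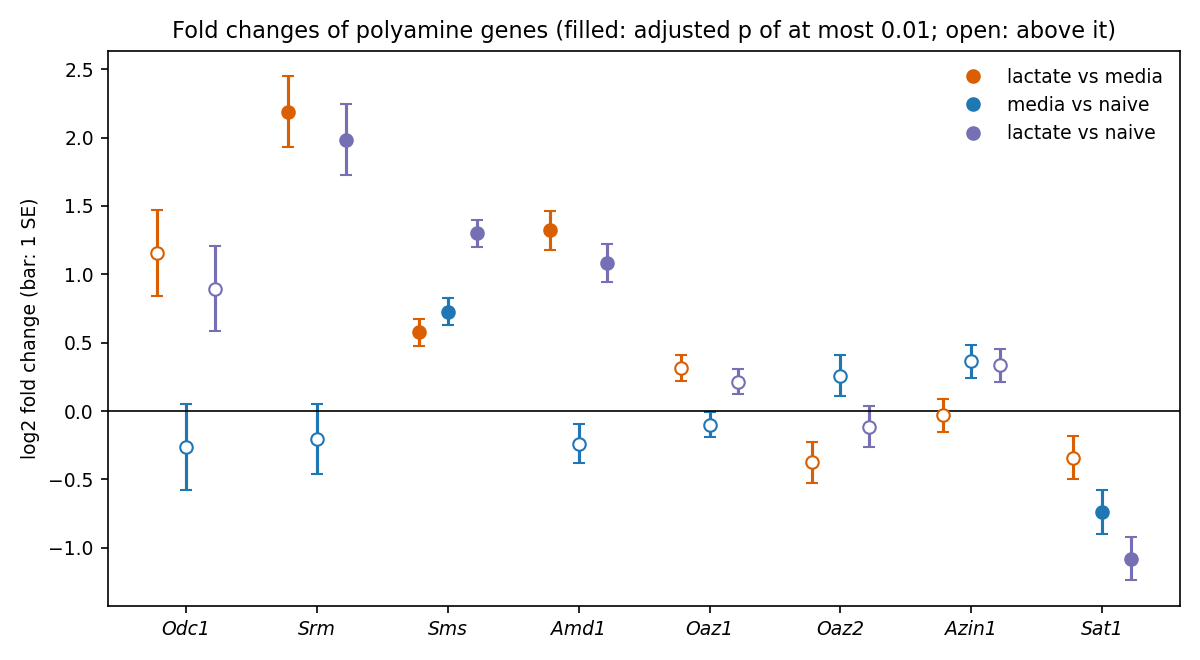
Log2 fold changes (vertical axis, bars 1 SE) of the 8 genes in the 3 comparisons between groups of 4 libraries, filled where the adjusted p was at most 0.01. Srm, Sms and Amd1 are filled and above 0 in lactate against media, while Odc1 is above 0 and open.

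The libraries numbered 1 to 9 and those numbered 16 to 26 each hold lactate and media libraries, the second set with 1 media library. Within the 2 sets, the difference of mean log2 CPM between lactate and media was 2.25 and 2.42 for Srm, 1.41 and 1.05 for Amd1, 0.55 and 0.56 for Sms, and 1.20 and 1.21 for Odc1. It was 0.33 and 0.22 for Oaz1, -0.41 and -0.42 for Oaz2, -0.46 and -0.37 for Sat1, and -0.07 and -0.04 for Azin1. Each of the 8 genes had the same direction in both sets. A separate test of whether the lactate effect differed between the sets (edgeR's quasi-likelihood test with Benjamini-Hochberg adjustment) called 0 of 13767 genes (0%), with 251 genes at an unadjusted p under 0.05, and limma voom also called 0. With a single media library in the second set and 1.82% of genes at that unadjusted p, the test can show little, and nothing is read from it.

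Within a library, ratios of TPM relate genes of opposing roles, and they are given as a description without a test. Odc1 to Oaz1, the enzyme to its antizyme, was 0.796, 0.508, 0.824 and 0.591 in media 1 to 4 and 1.56, 1.03, 1.19 and 1.15 in lactate 1 to 4, and 0.509, 0.586, 0.481 and 1.62 in naïve 1 to 4. All lactate libraries were above all media libraries, and only naïve 4 among the naïve libraries reached their range. Odc1 to Sat1, synthesis to breakdown, was 1.44, 0.699, 1.18 and 0.868 in media and 4.91, 2.28, 2.59 and 2.59 in lactate. Srm to Sms was 2.5, 1.19, 2.4 and 1.45 in media and 7.78, 5.02, 5.25 and 5.33 in lactate, while naïve libraries lay between at 2.88 to 4.46. Azin1 to Odc1, the inhibitor to the enzyme it resembles, was 0.485 to 0.824 in media and 0.23 to 0.296 in lactate. Neither range overlaps the other, and the same holds for the 2 antizymes, with Oaz1 to Oaz2 at 7.98 to 10.9 in media and 14.4 to 18.2 in lactate. Lactate 1 was the highest lactate library for 4 of these 5 ratios, Azin1 to Odc1 being the exception.

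**Figure D3:**
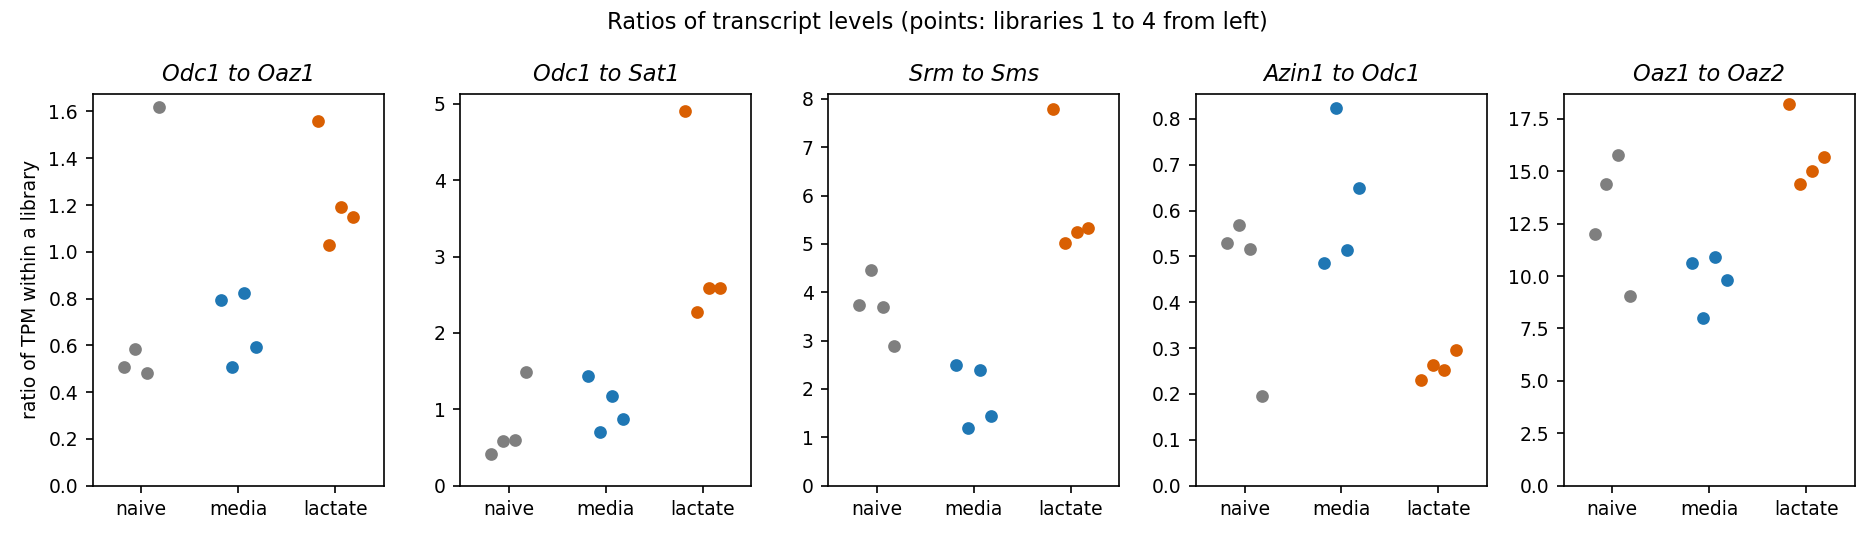
Ratios of TPM between pairs of polyamine genes (vertical axis from 0) within each of the 12 libraries, with points for libraries 1 to 4 of each group. Odc1 to Oaz1 is 1.03 to 1.56 in lactate and 0.508 to 0.824 in media, and naïve library 4 lies at 1.62.

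Activation in plain media was read against naïve cells, and 2 of the 8 genes were called (57.5% of genes tested), 1 of them higher (28.5% of genes) and 1 lower (29%), and the libraries did not overlap for the same 2 genes, Sms and Sat1 (61.2% of genes). The median log2 fold change of the 8 was -0.15, against -0.0288 over all genes. Sms was at 38.9, 37.9, 43.6 and 47.5 CPM in naïve 1 to 4, below all media libraries. It rose by 0.73 on the log2 scale (SE 0.0989, adjusted p = 3.18e-05 by edgeR's quasi-likelihood test with Benjamini-Hochberg adjustment). Sat1 was at 224.5, 203, 150 and 174 CPM in naïve 1 to 4, above all media libraries. It fell by 0.74 on the log2 scale (SE 0.16, adjusted p = 0.00116 by the same edgeR test with Benjamini-Hochberg adjustment). The 2 naïve libraries with the highest Sat1 also had the highest sums of myeloid markers (1506 and 1126 CPM, against 489 and 458), and the part of myeloid cells in the Sat1 difference was not tested.

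The entry enzymes did not pass the test in plain media after 72 h. Odc1 was at 113, 145, 111 and 317 CPM in naïve 1 to 4, and the single high library set the sign of the comparison. Its log2 fold change was -0.26 (SE 0.31, adjusted p = 0.473 by edgeR's quasi-likelihood test with Benjamini-Hochberg adjustment), and without naïve 4 it was 0.22 (adjusted p = 0.343, same edgeR test and Benjamini-Hochberg adjustment; 0.208 to 0.789 over all alternatives). Within the libraries numbered 1 to 9 the difference was 0.20, and within those numbered 16 to 26, with 1 library of each group, it was -1.24. Srm was at 38.8, 44.9, 42.9 and 36.4 CPM and Amd1 at 23.7, 22.9, 21.4 and 29.6 CPM in naïve 1 to 4. Both overlapped the media libraries, with log2 fold changes of -0.20 (SE 0.25) and -0.24 (SE 0.14). Azin1, at 105 to 152 CPM in naïve and 142 to 161 CPM in media libraries, differed by 0.36 on the log2 scale (adjusted p = 0.0177 by edgeR's quasi-likelihood test with Benjamini-Hochberg adjustment). Its call turned on naïve 2, the highest naïve library, without which the log2 fold change was 0.43 (adjusted p = 0.00236, edgeR's quasi-likelihood test with Benjamini-Hochberg adjustment; 0.00236 to 0.107 over all alternatives). The antizyme transcripts overlapped between the groups, at log2 fold changes of -0.10 for Oaz1 and 0.26 for Oaz2.

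After activation in sodium lactate, 4 of the 8 genes were called against naïve cells (65% of genes tested), 3 of them higher (33% of genes) and 1 lower (32%), with no overlap between libraries for these 4 (67.8% of genes). The median log2 fold change was 0.61, against 0.012 over all genes. Srm rose by 1.99 on the log2 scale (3.96-fold, SE 0.26, adjusted p = 1.68e-05), Sms by 1.30 (2.46-fold, SE 0.0997, adjusted p = 1.68e-07) and Amd1 by 1.08 (2.12-fold, SE 0.14, adjusted p = 1.53e-05), all by edgeR's quasi-likelihood test with Benjamini-Hochberg adjustment. Sat1 fell by 1.08 (SE 0.16, adjusted p = 5.08e-05, same edgeR test and Benjamini-Hochberg adjustment), beside the drop in myeloid markers given above. Odc1 differed by 0.90 on the log2 scale (SE 0.31, adjusted p = 0.0204 by edgeR's quasi-likelihood test with Benjamini-Hochberg adjustment). Naïve 4, at 317 CPM, lay within the lactate range, and the difference was 1.40 within the libraries numbered 1 to 9 and -0.03 within those numbered 16 to 26. Without naïve 4 the log2 fold change was 1.38 and the call was made (adjusted p = 6.17e-05, edgeR's quasi-likelihood test with Benjamini-Hochberg adjustment; up to 0.0857 over all alternatives). Azin1 (0.33, adjusted p = 0.0245) was likewise called only without naïve 2 (0.39, adjusted p = 0.00374) among the libraries left out in turn, again by edgeR's quasi-likelihood test with Benjamini-Hochberg adjustment. Oaz1 (log2 0.22) and Oaz2 (-0.11) were not called.

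Genes around the pathway were read from 6 lists with 51 genes, of which 39 were tested. In lactate against media, 17 of the 39 were called (25.1% of all genes), 13 higher (13.9%) and 4 lower (11.1%), and 25 of 39 did not overlap (44.7%). Their median was 0.34 on the log2 scale, against -0.00158 over all genes. The number called was 11 without lactate 3 (2316 of all genes), 10 without lactate 4 (2390) and 24 without naïve 4 (4830). The fit of all libraries called 3451 of all genes. The list count was 23 (4590 of all genes) with the 2 compared groups alone and 7 (992) with donor as a block. With that block fitted to the activated libraries alone it was 18 (3769). Of the calls that the first donor block lost, those of Aldh18a1, Ass1, Pycrl, Ahcy, Adi1 and Dohh were made under the second, and those of Azin2, Mri1, Enoph1 and Mga were not. In media against naïve cells 18 of 39 were called (57.5% of all genes), 13 higher (28.5%) and 5 lower (29%), and in lactate against naïve cells 32 of 39 (65%), 26 higher (33%) and 6 lower (32%). These counts and the median include genes that met the filter on low counts only through a group where they were higher. Among them are Azin2, in counts with lactate, and Pycr1, Slc12a8 and Mycn, in counts against naïve cells. The counts are therefore in part set by the filter.

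Of 10 genes of arginine and ornithine metabolism, 3 were higher and 1 lower in lactate than in media (median log2 fold change 0.42). Over all genes, 13.9% were called higher and 11.1% lower. Slc25a15, the mitochondrial ornithine carrier, was at 17.2, 12.1, 15.1 and 12.7 CPM in media 1 to 4 and 33.8, 28.9, 29.7 and 29.9 CPM in lactate 1 to 4, more in every lactate library. It rose 2.15-fold (log2 1.10, SE 0.14, adjusted p = 0.000118 by edgeR's quasi-likelihood test with Benjamini-Hochberg adjustment). Aldh18a1, which starts the route from glutamate to proline and ornithine, was at 224, 133, 225 and 168 CPM in media and 356, 275, 335 and 319 CPM in lactate (log2 0.78, SE 0.16). Pycrl, a pyrroline-5-carboxylate reductase, was at 19.9 to 28.0 CPM in media and 33.7 to 37.3 CPM in lactate (log2 0.50, SE 0.11). Ass1, which makes argininosuccinate on the way to arginine, went the other way, at 40.2, 52.2, 43.6 and 49.2 CPM in media against 25.9, 33.4, 26.0 and 32.2 CPM in lactate (log2 -0.66, SE 0.13). It shares 33.6% of its 71-base stretches with Gm5424, which makes its level uncertain. With donor as a block the calls of Aldh18a1, Ass1 and Pycrl were lost (adjusted p = 0.0191, 0.0269 and 0.0353, edgeR's quasi-likelihood test with Benjamini-Hochberg adjustment; the lowest over all alternatives were 4.99e-05, 8.21e-06 and 0.000666). Pycrl was also not called with scaling by total counts only, nor without media 3 or without lactate 1, 3 or 4 (adjusted p = 0.0133, 0.014, 0.0158 and 0.0128 without these libraries, edgeR's quasi-likelihood test with Benjamini-Hochberg adjustment).

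Only 1 of 5 listed paralogs of the 8 genes, the antizyme inhibitor Azin2, was tested. Its counts were 8, 1, 9 and 6 reads in media 1 to 4 and 14, 31, 30 and 29 in lactate 1 to 4. It was thus scarce everywhere and more frequent in each lactate library. Azin2 met the filter (at least 1 CPM in at least 3 libraries) only through lactate 2, 3 and 4, at 1.625, 2.122 and 1.397 CPM. Since the group where it was higher admitted it, nothing is read from its test. The log2 fold change was 2.14 (SE 0.48, 4.4-fold, adjusted p = 0.00376 by edgeR's quasi-likelihood test with Benjamini-Hochberg adjustment), and 1.51 to 2.41 over the alternatives. The 3 donors with both conditions lay below that fold, at CPM ratios of lactate to media of 1.94, 3.24 and 3.71. The call was lost with donor as a block (0.0258) and without media 1 (0.0101), lactate 3 (0.014) or lactate 4 (0.0101), each an adjusted p from edgeR's quasi-likelihood test with Benjamini-Hochberg adjustment, and the lowest over all alternatives was 6.39e-05. Of 6 genes of polyamine oxidation and transport, 0 were called in either direction (25.1% of all genes), with a median log2 fold change of 0.0888. Among them Smox, the spermine oxidase, was at 38.4 to 50.5 CPM in media and 21.6 to 34.1 CPM in lactate, and Slc3a2, the shared heavy chain of several amino acid carriers, at 181 to 337 CPM and 367 to 419.5 CPM. These 2 were the only ones of the 6 at an unadjusted p under 0.05, and both were chosen for mention after their values were seen.

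The methionine cycle and methylthioadenosine salvage feed Amd1 and recycle the by-product of Srm and Sms. Of 8 genes of these routes, 6 were called higher in lactate (13.9% of all genes) and 0 lower (11.1%), with a median of 0.56. The genes not called, Apip of the salvage route and Mat2b, had log2 fold changes of -0.23 and -0.17. Mat2a, which makes S-adenosylmethionine, was at 128, 96.8, 108 and 73.1 CPM in media 1 to 4 and 337, 211, 210.3 and 214 CPM in lactate 1 to 4. The lactate libraries overlapped the naïve ones (228 to 272 CPM), and the media libraries were below both. Its log2 fold change was 1.26 against media (SE 0.18, adjusted p = 0.000298 by edgeR's quasi-likelihood test with Benjamini-Hochberg adjustment). The transcript Particl on the opposite strand covers 11.3% of its exon bases. Mtap, which cleaves methylthioadenosine, was at 51.8, 32.7, 49.6 and 45.3 CPM in media and 113, 76.7, 100 and 90.8 CPM in lactate (log2 1.08, SE 0.16, adjusted p = 0.000317 by edgeR's quasi-likelihood test with Benjamini-Hochberg adjustment).

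Further along the salvage route, Mri1 (log2 0.42), Enoph1 (0.51) and Adi1 (0.64) rose too, and so did Ahcy (0.62), which clears S-adenosylhomocysteine. Their lactate libraries lay at 75.6 to 88.0, 23.3 to 28.1, 55.9 to 61.9 and 89.8 to 116 CPM, above media libraries at 53.3 to 67.1, 14.5 to 19.8, 32.7 to 41.9 and 55.8 to 72.3 CPM. Of the 71-base stretches of Ahcy, 66.2% also occur in other transcripts, mainly those of Gm4737, so its level is uncertain. Each of these 4 calls was lost without some single libraries. By edgeR's quasi-likelihood test with Benjamini-Hochberg adjustment, Adi1 was not called when any 1 of media 2, 3 and 4 and lactate 1, 2, 3 and 4 was left out (adjusted p = 0.0113 to 0.0213), and Enoph1 when any 1 of naïve 1 and 2, media 1, 2 and 4 and the lactate libraries was (0.0107 to 0.0236). By the same edgeR test with Benjamini-Hochberg adjustment, Mri1 was not called without media 2 or 3 or lactate 2, 3 or 4 (adjusted p = 0.0102 to 0.014), nor Ahcy without media 1, 2 or 4 or lactate 3 or 4 (0.0107 to 0.0234). With scaling by total counts only, Mri1 and Enoph1 were not called, and Enoph1 was not called with a block on the numbers in the sample titles. With donor as a block none of these 4 was called (adjusted p = 0.0454 for Mri1, 0.062 for Enoph1, 0.0838 for Adi1 and 0.0939 for Ahcy, edgeR's quasi-likelihood test with Benjamini-Hochberg adjustment).

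Spermidine is also the source of hypusine, the modified lysine that the translation factor eIF5A needs. Of the 4 genes of this step, 3 were called higher in lactate (13.9% of all genes) and 0 lower (11.1%), with a median of 0.87. Eif5a itself was at 809, 454, 721.5 and 669 CPM in media 1 to 4 and 1780, 1536, 1858 and 1754 CPM in lactate 1 to 4, with naïve libraries at 352.5 to 391 CPM. The 3 groups were fully separate, in the order naïve, media, lactate. Eif5a rose 2.61-fold over media (log2 1.38, SE 0.15, adjusted p = 6.57e-05) and by 0.84 from naïve cells to media (SE 0.15, adjusted p = 0.000232), both by edgeR's quasi-likelihood test with Benjamini-Hochberg adjustment. Dhps and Dohh, the enzymes that build hypusine, stood at 22.9, 20.0, 23.6 and 26.0 CPM and at 11.2, 8.24, 9.70 and 8.53 CPM in media 1 to 4. In lactate 1 to 4 they stood at 48.5, 38.1, 43.1 and 40.5 CPM and at 17.3, 17.8, 14.9 and 14.4 CPM, above every media library. The log2 fold changes were 0.88 (SE 0.11) for Dhps and 0.77 (SE 0.14) for Dohh. Dohh lost its call with donor as a block (adjusted p = 0.014, edgeR's quasi-likelihood test with Benjamini-Hochberg adjustment; as low as 9.75e-06 over all alternatives). It shares 47.5% of its exon bases with Gm48551 on the same strand, so its counts are uncertain, and Wdr83 overlaps 5.51% of those of Dhps on the opposite strand.

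Of 10 genes of the MYC network, 0 were higher (13.9% of all genes) and 3 lower (11.1%) in lactate than in media (median -0.39). The 3 are Mxd4, Mxd1 and Mga, which encode partners of MAX that oppose MYC at its target sites. Mxd4 was at 88.0, 149, 96.5 and 124 CPM in media 1 to 4 and 13.5, 28.5, 24.6 and 30.2 CPM in lactate 1 to 4, and Mxd1 at 33.4, 61.2, 37.6 and 36.4 CPM and at 11.2, 17.7, 17.0 and 18.7 CPM. Every lactate library was below every media library for both. An antisense gene, Gm42846, covers 6.06% of the exon bases of Mxd4. Mxd4 fell by 2.24 (SE 0.25, adjusted p = 7.42e-05) and Mxd1 by 1.39 (SE 0.22, adjusted p = 0.000477) on the log2 scale, by edgeR's quasi-likelihood test with Benjamini-Hochberg adjustment. Mga fell by 0.60 (SE 0.14, adjusted p = 0.00379, edgeR's quasi-likelihood test with Benjamini-Hochberg adjustment). Its call was lost with donor as a block (0.0475) and without media 2 or 3 or lactate 2 or 4 (0.0102 to 0.0146), all adjusted p from edgeR's quasi-likelihood test with Benjamini-Hochberg adjustment. Myc was at 336, 243, 303.5 and 565 CPM in media 1 to 4 and 633, 573, 595.5 and 649.6 CPM in lactate 1 to 4. Media 4 came close to the lactate libraries, and the log2 fold change of 0.76 did not pass edgeR's quasi-likelihood test with Benjamini-Hochberg adjustment (adjusted p = 0.0293).

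The E-box CACGTG, the motif that MYC and MAX bind, was searched in RefSeq promoters of GRCm38.p6, from 250 bases before to 50 bases after each transcript start. The motif reads the same on both strands, and 7.15% of 32851 promoters hold it. Promoters were listed for 6 of the 8 polyamine genes, and 1 of these 7 promoters, that of Sms, holds the motif. No promoter was listed for Srm or Azin1, so these genes were not searched. The 18 named genes from the lists with an entry have 26 promoters, of which 9 hold the motif, and 2 of the 9 overlap each other and share a match. They belong to 7 genes: Aldh18a1, Ass1, Dohh, Eif5a, Enoph1, Mxd4 and Slc25a15. Of these, Ass1 and Mxd4 fell and the other 5 rose in lactate against media. The Sms stretch is shown because it is the only match among these 7 promoters of the polyamine genes. It lies upstream of the gene at chrX:157492441-157492520 on the minus strand, with the motif, in capitals, starting 196 bases before the transcript start. A match of letters is a description and not a binding site.
Sms: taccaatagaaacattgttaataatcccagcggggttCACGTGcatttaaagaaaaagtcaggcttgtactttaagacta

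Against naïve cells, the list genes with the highest log2 fold changes were Pycr1, Slc12a8 and Mycn in both activated groups. All of them met the filter on low counts only through the activated libraries, where they were higher. Nothing is therefore read from their tests against naïve cells. Pycr1, a pyrroline-5-carboxylate reductase of proline synthesis, was at 0.564 to 1.06 CPM in naïve, 18.5 to 33.8 CPM in media and 28.9 to 31.1 CPM in lactate libraries (log2 fold change 5.13, SE 0.26, in media and 5.35, SE 0.26, in lactate). Slc12a8, a member of the cation-chloride carrier family, was at 0.112 to 0.539, 3.49 to 6.33 and 2.97 to 5.02 CPM (log2 4.06 and 3.79). Mycn had 11, 9, 10 and 1 reads in naïve 1 to 4, 93, 74, 50 and 169 in media 1 to 4 and 36, 45, 61 and 174 in lactate 1 to 4. Library 4 was thus the lowest naïve library and the highest in both activated groups. The log2 fold changes of Mycn were 3.61 in media and 3.25 in lactate, and 3.00 without media 4 and 2.60 without lactate 4.

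Among list genes that were lower in activated cells, Mat2a fell by 1.29 on the log2 scale in media (SE 0.18), and Atp13a2, a lysosomal polyamine exporter, fell by 1.16 (SE 0.22), from 229, 155, 97.9 and 106 CPM in naïve 1 to 4 to 59.0 to 76.5 CPM in media. Naïve 1 and 2, the libraries with the most myeloid marker transcripts, also had the highest Atp13a2, and the part of myeloid cells in it was not tested. In lactate, against the same naïve cells, Mxd4 fell by 2.73 (SE 0.25) from 130.5 to 196 CPM in naïve libraries, and Mxd1 fell by 2.41 (SE 0.23) from 67.6 to 106 CPM. Each of the log2 fold changes of named list genes against naïve cells passed edgeR's quasi-likelihood test with Benjamini-Hochberg adjustment. The highest adjusted p by this edgeR test was 0.000669, for Mycn in lactate, but nothing is read from the tests of Pycr1, Slc12a8 and Mycn.

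The genes whose log2 CPM followed that of Odc1 most closely across the 12 libraries, among 9245 genes compared, were Syngr2 (Pearson r = 0.966), AI506816 (0.966), Map2k3 (0.965), Polr2e (0.964) and Nploc4 (0.961). Without naïve 4 these were 0.962 to 0.969. For Sat1 they were Cd68 (0.97), Jup (0.968), Pak1 (0.962), Itm2c (0.961) and Pld3 (0.958). Cd68 is 1 of the 5 myeloid markers, and it was at 146, 109, 46.9 and 56.1 CPM in naïve 1 to 4, 11.7 to 18.1 CPM in media and 4.87 to 10.4 CPM in lactate libraries. These correlations describe libraries that fall into 3 groups and in part share donors, and correlations within groups were not computed.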

How the data were processed

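RNA libraries (TruSeq Stranded mRNA, 71-base single-end reads) were made from 12 samples of mouse CD8+ T cells, 4 per group. Per the study's methods and the submitters' processing notes, the authors converted reads with bcl2fastq 2.20.0.422, aligned them to GRCm38 with STAR 2.7.5b, discarded PCR duplicates and used featureCounts to count reads with a unique alignment to exons. The authors deposited raw counts for 13780 genes.

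Counts were analysed in R 4.3.3 with edgeR 4.0.16. Genes with at least 1 CPM in at least 3 libraries (13767) were scaled by TMM and fitted in 1 quasi-likelihood model of all 12 libraries and 3 groups, without a block. P-values were adjusted by Benjamini-Hochberg over all 13767 genes and called at 0.01 or less. SE is |log2 fold change| over the root of F. CPM are TMM-scaled, TPM use the gene lengths in the table, and log2 CPM have a prior count of 2. The edgeR fit and the test of whether the lactate effect differed between the sets of libraries were first run on simulated counts. The other steps were not. Gene positions and shared sequence come from GENCODE M21.

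Alternatives were DESeq2 1.42.0, limma 3.58.1 (voom), edgeR's likelihood ratio test, other scalings, filters and thresholds, the compared groups alone, a term for library number, blocks and leaving out each library. Donor tags in the labels repeat between libraries numbered 1 to 9 and 16 to 26. They were assumed to start anew there, which gives the 5 activated donors of the design text and pairs media 1 with lactate 1, media 3 with lactate 2 and media 4 with lactate 4. The pairing comes from these tags. Deviations from group means correlated at r = 0.374, 0.211 and 0.553 in these pairs and at -0.441 to 0.371 in the other pairs of a media and a lactate library, so the check does not separate the pairs by itself.

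The text names the 8 genes, every list gene called in lactate against media, the 3 highest and 3 lowest called list genes in each activation comparison, and the 5 genes most correlated with Odc1 and with Sat1 among those with a mean of at least 10 CPM. Some items that the rule names are not reported here. The members and lists were chosen with earlier results of these data known.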

Additional observations from a re-analysis of the deposited data

Results flagged for a closer look

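In 102 groups of 4 libraries (8 genes, 21 list genes and 5 ratios, in 3 groups each), 14 had 1 library far from the other 3, with a gap to its nearest neighbour, as a share of the group's range, above Dixon's critical value. Chance gives about 1 in 20 for independent groups. The ratios here reuse the 8 genes, and the groups share libraries, so nothing is read from the number of distant libraries.

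Naïve 4 was the distant library in 7 of the 14. Odc1 was at 317 CPM there against 111 to 145 CPM in the other naïve libraries, Ass1 at 31.9 against 24.6 to 25.6, Mtap at 36.8 against 47.7 to 49.2, Adi1 at 22.2 against 36.0 to 38.6 and Mycn at 0.056 against 0.539 to 0.62. The TPM ratio of Odc1 to Oaz1 was 1.62 against 0.481 to 0.586, and that of Azin1 to Odc1 0.196 against 0.516 to 0.568.

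Lactate 1 was distant for Sat1 (63.6 against 95.2 to 101 CPM), Mat2a (337 against 210.3 to 214 CPM), and the ratios of Odc1 to Sat1 (4.91 against 2.28 to 2.59) and Srm to Sms (7.78 against 5.02 to 5.33). Media 2 was distant for Enoph1 (14.5 against 19.1 to 19.8 CPM) and Mxd1 (61.2 against 33.4 to 37.6 CPM), and lactate 2 for Mri1 (88.0 against 75.6 to 77.5 CPM).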

How the results depend on the processing

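Srm and Amd1 were called in lactate against media under all 26 alternatives, with log2 fold changes of 1.99 to 2.39 and 1.23 to 1.42. In that comparison, 5 of the 8 genes were called at a threshold of 0.05 and with the 2 groups alone, and 3 to 5 when 1 library was left out. Genes called numbered 5461 at 0.05 and 4590 with the 2 groups alone. With 1 library left out they numbered 2260 (without media 2) to 4830 (without naïve 4), and list genes called 10 to 24. The sign turned for Azin1 in lactate against media without lactate 2 (0.0357; -0.0778 to 0.0357 over the 12 libraries left out in turn) and for Odc1 in media against naïve cells without naïve 4 (0.22; -0.48 to 0.22). The cause was not tested. Odc1 in lactate against media passed 0.01 with DESeq2 (adjusted p = 0.00173) and limma voom (0.00718). At these depths Azin2 and Mycn rest on few reads in some groups.

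With donor as a block, 992 genes, 7 list genes and 2 of the 8 genes were called in lactate against media. With the donor block fitted to the activated libraries alone, a fit added after seeing the data, these were 3769, 18 and 4. A block on the numbers in the sample titles gave 3256, 16 and 3. Those numbers pair different donors in part (r = 0.374, 0.297, 0.0038 and 0.553). That block called 7806 genes, 17 list genes and 2 of the 8 in media against naïve cells, and 8851, 32 and 4 in lactate against naïve cells.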
